A study of Arabidopsis thaliana with 28 samples.

Results

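The miR395 family of Arabidopsis thaliana comprised 6 of the 421 mature miRNAs in the deposited table, taken by name: ath-miR395a, ath-miR395b, ath-miR395c, ath-miR395d, ath-miR395e and ath-miR395f (written without the prefix from here on). Abscisic acid (ABA) is a plant hormone of water stress and seed dormancy. The libraries came from whole wild-type seedlings of ecotype Col-0 kept under ABA, or in an ethanol mock (EtOH), for 0.5, 1, 3, 6, 9, 12 or 24 h. There were 2 libraries in each of the 14 groups of treatment and time, 28 in all. All groups shared the genotype, and none carried a mutation or a transgene. No source used here gives the dose of ABA or the age of the seedlings. Nor do the labels say whether the 2 libraries of a group were grown apart, so the p-values rest on a spread that may be technical. Whole seedlings were sampled, so a lower level in fewer cells and a lower level in every cell cannot be told apart.

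Plants take up sulfate and activate it with ATP sulfurylase, the entry step of the path to cysteine, methionine and glutathione. miR395 is known to accumulate when sulfate is scarce. It pairs with the mRNAs of the ATP sulfurylases APS1, APS3 and APS4 and of SULTR2;1, a low-affinity sulfate transporter of the vascular tissue, and directs their cleavage. The target mRNAs were not measured in these libraries.

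The 6 miRNAs held only 2 sequences of 21 bases, so they are shown first to make clear which entries can be told apart. The sequences are those of RefSeq on the TAIR10.1 assembly, 5′ to 3′, with the seed (bases 2 to 8) in capitals.
miR395a, miR395d and miR395e: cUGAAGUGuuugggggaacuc
miR395b, miR395c and miR395f: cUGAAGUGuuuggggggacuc
They differed by A17G, counted from 1 at the 5′ end, with the base of miR395a first. The 6 members were the only listed miRNAs with this seed. The seed did not separate the 2 sequences, since position 17 lies outside it.

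The 6 genes lay on chromosome 1 in a pair of clusters. MIR395a (AT1G26973, chr1:9363196-9363288, minus strand), MIR395b (AT1G26975, chr1:9364471-9364570, plus strand) and MIR395c (AT1G26985, chr1:9367080-9367179, plus strand) spanned 3.984 kb. MIR395d (AT1G69792, chr1:26269979-26270078, minus strand), MIR395e (AT1G69795, chr1:26272776-26272870, minus strand) and MIR395f (AT1G69797, chr1:26273858-26273969, plus strand) spanned 3.991 kb. Each cluster held both sequences, and strand went with sequence: the genes of the miR395a sequence lay on the minus strand and those of the miR395b sequence on the plus strand. RefSeq annotates each as a miRNA gene the length of its hairpin, and no other annotated gene overlapped any of them.

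The sites that the family is known to cut were located in the coding sequence of the 4 target genes, to show where the differing base falls. They are written 5′ to 3′ as mRNA, with capitals for the bases that do not form a Watson-Crick pair with miR395a (mismatches and G-U wobbles).
APS1 (AT3G22890, chr3:8113164-8113184, plus strand): gaguuccUccaaacUcuucaU
APS3 (AT4G14680, chr4:8414958-8414978, minus strand): gaguuccUccaaacUcuucaU
APS4 (AT5G43780, chr5:17591121-17591141, minus strand): gaguuccUccaaacacuucaU
SULTR2;1 (AT5G10180, chr5:3193268-3193288, plus strand): AaguucUcccaaacacuucaA
With miR395a, APS4 had 1 mismatch and the other sites 2, and each site had 1 G-U wobble. With miR395b, each site kept its mismatches and had 2 wobbles, the added one opposite position 17. The best site of the ATP sulfurylase gene APS2 (AT1G19920) had 5 mismatches with either sequence.

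The values are normalised read counts, the count of a library divided by its size factor. The authors deposited the mean of the 2 libraries of each group, and the library values were recovered from these means as whole counts. The recovered libraries of a group are called a and b and carry no replicate number. All 6 members were split in all 14 groups, as were 362 of the 421 miRNAs. The recovered counts of the miR395a sequence were 165 to 1631 reads in a library, and those of the miR395b sequence 115 to 1844 reads. The group totals of the normalised means over all miRNAs were 4305800 to 7644820.

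Entries that share a sequence had nearly the same counts. In no library did miR395a, miR395d and miR395e differ by more than 2.42%, or miR395b, miR395c and miR395f by more than 3.70%. A read of a shared sequence cannot be assigned to its locus, so the 6 entries give 2 measurements, not 6. Values are therefore printed for miR395a and miR395b, and a count of members mostly moves by 3 at a time. miR395a made up 0.00364% to 0.0204% of a group's total and miR395b 0.0028% to 0.0308%. In mean level they ranked 147 and 132 of 421.

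In the first hour of ABA the whole family stood well above the mock. At 0.5 h miR395a had 1148 and 1169 normalised counts in the ABA libraries, against 265 and 316 in the EtOH libraries. miR395b had 1828 and 1678 in ABA, against 324 and 403 in EtOH. The ABA and EtOH libraries did not overlap for either sequence, and the libraries within a group were close together. How many of all miRNAs had groups apart in this way was not counted at any time, so non-overlap is a description only. The rise was 3.99-fold for miR395a (log2 difference 1.997 ± 0.36 SE, limma adjusted p = 0.000899) and 4.84-fold for miR395b (2.27 ± 0.37 SE, adjusted p = 0.000525). All 6 members rose, where 5.42% of all tested miRNAs did. Of 369 tested, miR395b ranked the third highest in difference, behind only miR395f and miR395c of the same sequence. All 6 also passed in the authors' deposited table, where 6.59% of the miRNAs with a value rose. Adjusted p-values here and below are from limma over all tested miRNAs, with a threshold of 0.05.

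At 1 h the order was the same. miR395a had 667 and 850.1 normalised counts in ABA, against 204 and 305 in EtOH. miR395b had 1024 and 1848 in ABA, against 306 and 295 in EtOH. Again the groups did not overlap, though the ABA libraries of miR395b lay further apart than at 0.5 h. The rise was 3.01-fold for miR395a (log2 difference 1.59 ± 0.36 SE, adjusted p = 0.0058) and 4.57-fold for miR395b (2.19 ± 0.37 SE, adjusted p = 0.000687). All 6 members rose, where 6.63% of all tested miRNAs did. Without EtOH library a, or without ABA library b, the members of the miR395a sequence no longer passed, and the lowest difference of miR395a was 1.30. In the authors' deposited table the adjusted p at 1 h was 6.24e-05 for miR395a and 0.0511 for miR395b, so only the miR395a sequence passed there, where 3.67% of the miRNAs with a value did.

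**Figure D1:**
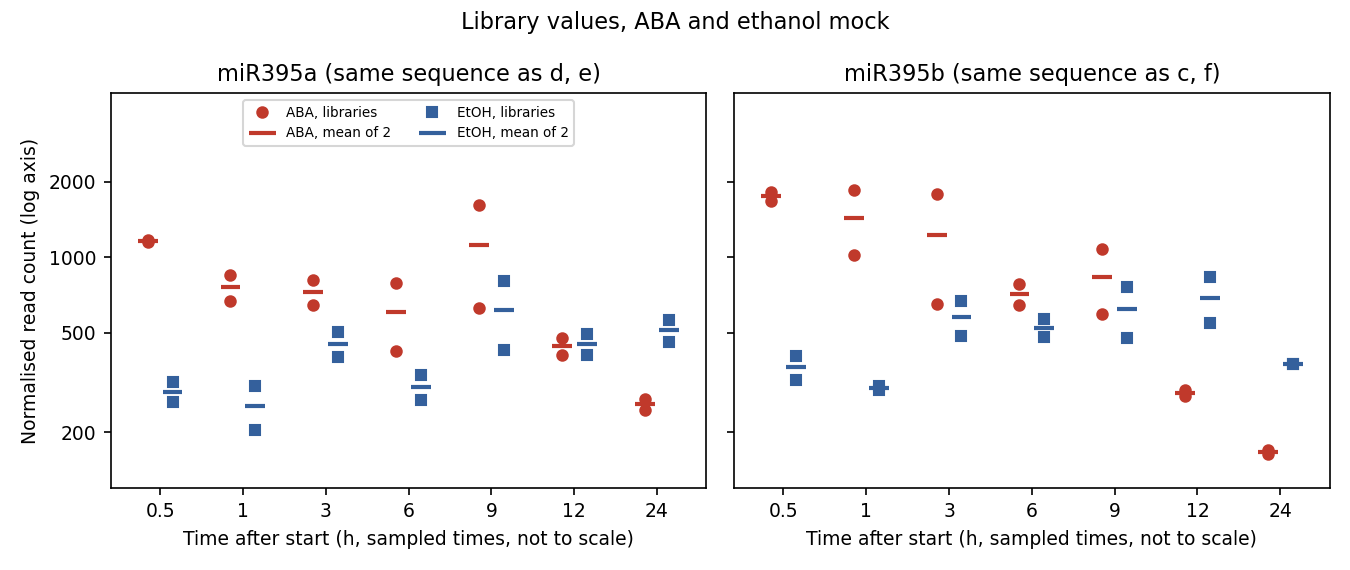
Normalised read counts (log axis) of miR395a (left) and miR395b (right) in every library at each sampled time, ABA as red circles and EtOH as blue squares, with bars at the mean of 2 libraries. The ABA libraries lie far above the EtOH libraries at 0.5 h (1148 and 1169 against 265 and 316 for miR395a) and below them at 24 h (271 and 246 against 562 and 459).

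Between 3 and 9 h the differences were smaller and the libraries more scattered. At 3 h miR395a had 643 and 807 normalised counts in ABA, against 400.1 and 502 in EtOH. miR395b had 652 and 1793 in ABA, against 483 and 667 in EtOH. The miR395a groups did not overlap, whereas for miR395b a single ABA library, b, stood far above the rest and the other fell within the EtOH range. The log2 difference was 0.68 ± 0.36 SE for miR395a (adjusted p = 0.260) and 0.93 ± 0.37 SE for miR395b (adjusted p = 0.133). With limma 0 of 6 members passed at 3 h, where 4.18% of all tested miRNAs rose. At an unadjusted p under 0.05, 3 members rose, where 11.4% of all tested miRNAs did, and voom weights on the recovered counts gave 0. The authors' deposited adjusted p also gave 0, where 0.246% of miRNAs rose. Without ABA library a, 3 members passed, and the difference of miR395b was 1.66. Without ABA library b it was 0.20. The ABA libraries of miR395b at 3 h differed by 1.46 on the log2 scale, and 4.76% of miRNAs differed by more in that group.

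At 6 h miR395a had 786 and 424 normalised counts in ABA, against 338 and 269 in EtOH. miR395b had 783 and 644 in ABA, against 566 and 480 in EtOH. Both ABA libraries lay above both EtOH libraries for each sequence, by less than at 0.5 h. With 2 libraries a group this order is a description, not a test. The log2 difference was 0.93 ± 0.36 SE for miR395a (adjusted p = 0.110) and 0.45 ± 0.37 SE for miR395b (adjusted p = 0.482). With limma 0 of 6 passed, where 4.24% of all tested miRNAs rose. At an unadjusted p under 0.05, 3 members rose, where 10.6% of all tested miRNAs did, and voom gave 0, as did the authors' deposited table, where 2.42% rose. Without either 1 of the ABA libraries of 9 h, 3 members passed at 6 h. Without ABA library a of 6 h the difference of miR395a was 0.49 (adjusted p = 0.486), and over all repeats that left out 1 library it ran from 0.49 to 1.38.

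At 9 h miR395a had 1613 and 625 normalised counts in ABA, against 425 and 805 in EtOH. miR395b had 1075 and 591 in ABA, against 474 and 763 in EtOH. The groups overlapped for both sequences, and ABA library a was the highest of the 4 for each. The log2 difference was 0.78 ± 0.36 SE for miR395a (adjusted p = 0.158) and 0.41 ± 0.37 SE for miR395b (adjusted p = 0.498). With limma 0 of 6 passed, where 7.08% of all tested miRNAs rose. At an unadjusted p under 0.05, 3 members rose, where 14.4% of all tested miRNAs did, and voom gave 0, as did the authors' deposited table, where 3.68% rose. Without ABA library b the difference of miR395a was 1.46 and 3 members passed. Without ABA library a it was 0.096 for miR395a and -0.02 for miR395b.

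At 12 h the miR395b sequence was below the mock while the miR395a sequence was level with it, a difference between sequences that was not tested. miR395a had 408 and 476 normalised counts in ABA, against 405 and 493 in EtOH. The groups lay on top of each other, with a log2 difference of -0.02 ± 0.36 SE (adjusted p = 1). miR395b had 295 and 279 in ABA, against 544 and 833 in EtOH. Its ABA libraries lay close together below both EtOH libraries, 2.34-fold lower (log2 difference -1.23 ± 0.37 SE, adjusted p = 0.0380). The 3 members of the miR395b sequence fell and the other 3 did not pass, where 4.14% of all tested miRNAs fell. Leaving out any of the 4 libraries of 12 h left 0 members past the threshold, with miR395b between -1.54 and -0.92. With no filter on low values 0 passed as well. miR395f, the closest to the threshold of the 3 that fell, missed it in 10 of the 28 repeats that left out 1 library. The authors' deposited table gave the same split, with adjusted p of 0.0224 for miR395b and 1 for miR395a, where 12% of its miRNAs fell.

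At 24 h the whole family stood below the mock. miR395a had 271 and 246 normalised counts in ABA, against 562 and 459 in EtOH. miR395b had 164 and 170.3 in ABA, against 375 and 376 in EtOH. Both ABA libraries lay below both EtOH libraries for each sequence. The difference was 1.96-fold for miR395a (log2 -0.97 ± 0.36 SE, adjusted p = 0.0598), which missed the threshold. miR395b fell 2.24-fold (log2 -1.16 ± 0.37 SE, adjusted p = 0.0292). The 3 members of the miR395b sequence passed, where 11% of all tested miRNAs fell. All 6 fell in the authors' deposited table (adjusted p = 0.00627 for miR395a and 0.00165 for miR395b), where 9.73% of its miRNAs did. In the limma fit, leaving out any 1 library kept the log2 difference between -1.19 and -1.135 for miR395b. For miR395a it stayed between -1.12 and -0.83. Which members passed at 24 h depended on the library left out. Fewer members passed without any 1 of the libraries of 24 h itself. More passed without any 1 of the ABA libraries of 6 h or of the libraries of 9 h.

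**Figure D2:**
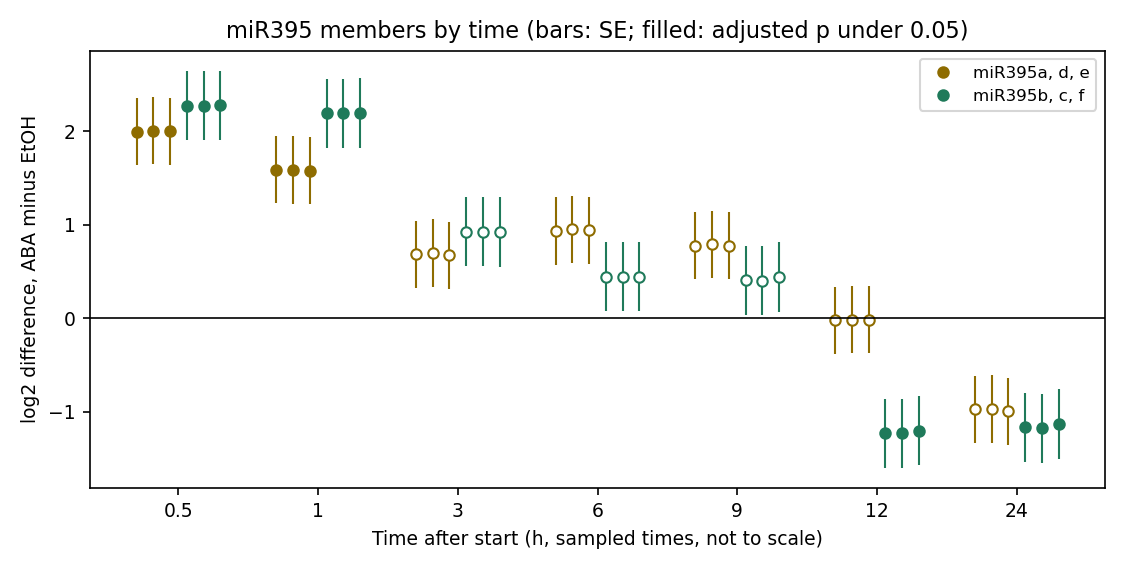
Log2 difference, ABA minus EtOH, of each of the 6 members at each sampled time, with bars for 1 SE from limma and filled points for an adjusted p under 0.05. The members rose at 0.5 and 1 h (1.58 to 2.28), and the miR395b sequence (green) fell at 12 and 24 h, where the miR395a sequence (brown) had differences of -0.02 and -0.97 for miR395a.

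The ABA effect thus differed with time, which was tested directly. The early and late times were chosen with earlier results of these data known, so the p-values of that contrast are not independent of them. The mean log2 difference over 0.5, 1 and 3 h was 1.42 for miR395a and 1.80 for miR395b. Over 6, 9, 12 and 24 h it was 0.18 for miR395a and -0.39 for miR395b. The late minus early change was -1.24 ± 0.27 SE for miR395a (adjusted p = 0.00363) and -2.18 ± 0.28 SE for miR395b (adjusted p = 1.22e-05). All 6 members fell by this contrast, where 10.1% of 357 tested miRNAs did. miR395b ranked the fourth lowest of them, next to miR395c and miR395f of its sequence, and miR395a 18 of 357. Leaving out any 1 library kept miR395a between -1.42 and -1.07 and miR395b between -2.43 and -1.94, with all 6 past the threshold. Without the scattered times of 3 and 9 h, a setting added after the values were seen, the changes were -1.81 for miR395a and -2.88 for miR395b. These times held the smallest early difference and a late difference above 0, so leaving them out enlarges the change.

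A test of whether the 7 differences were equal needed no split of the times. Its F was 7.55 for miR395a (adjusted p = 0.00564) and 14.5 for miR395b (adjusted p = 0.000143). All 6 members passed, where 6.44% of tested miRNAs did. The mean of the 7 differences was also above 0, at 0.71 ± 0.14 SE for miR395a (adjusted p = 0.00028) and 0.55 ± 0.14 SE for miR395b (adjusted p = 0.0033). All 6 passed, where 22.1% of tested miRNAs rose by that mean, so this count is read against a wide background. With only the 7 deposited log2 ratios as data, 0 of 6 passed for the mean and 0 for the late minus early change, although the values were close. There the mean was 0.73 for miR395a and 0.58 for miR395b, and the late minus early change was -1.20 for miR395a (adjusted p = 0.187) and -2.26 for miR395b (adjusted p = 0.0596).

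Levels across times were compared with size factors computed over all 28 libraries together. In ABA, miR395b was highest at 0.5 h with 1692 ± 116 normalised counts and lowest at 24 h with 182 ± 13.8 (SD, n = 2 each), a 9.31-fold range. The order between them was 3, 1, 9, 6 and 12 h. The libraries of the neighbours 0.5, 3, 1, 9 and 6 h overlapped in range, while those of 12 h (263 to 272) lay apart from both 6 h (755 to 915) and 24 h (172 to 192). In ABA, miR395a was highest at 9 h with 1161 ± 708 (SD, n = 2), where its libraries held 660.5 and 1661, so 9 h is not separated from 0.5 h (1118 ± 4.55). Then came 3, 6, 1 and 12 h, and 24 h was lowest at 281 ± 5.77, a 4.13-fold range. Of these neighbours, 3, 6 and 1 h overlapped, while 1, 12 and 24 h did not. Both sequences thus had their lowest ABA levels at 12 and 24 h. The time course within ABA passed for all 6 members (F = 7.97 and adjusted p = 0.00306 for miR395a, F = 20.7 and adjusted p = 1.18e-05 for miR395b), where 14.8% of 358 tested miRNAs did.

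The mock itself was not level. In EtOH, miR395a ran from 212 ± 58.1 normalised counts at 1 h to 636 ± 279 at 9 h (SD, n = 2 each), a 3.01-fold range. From the top its order was 9, 24, 3, 12, 6, 0.5 and 1 h. miR395b ran from 250.02 ± 7.41 at 1 h to 650.2 ± 198 at 12 h, a 2.60-fold range, and its order was 12, 9, 6, 3, 24, 0.5 and 1 h. Both sequences were lowest in the mock at 1 h and next lowest at 0.5 h, the times at which ABA differed most from it. Neighbours in these orders overlapped in library range for miR395a, except 6 and 0.5 h, and for miR395b from 12 to 3 h. The time course within EtOH passed for all 6 members (F = 4.76 and adjusted p = 0.0371 for miR395a, F = 4.10 and adjusted p = 0.0485 for miR395b), where 15.9% of tested miRNAs did. These p-values lay near the threshold: with the authors' own scaling 0 of 6 passed, and leaving out single libraries gave 0 to 6.

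The ratio of miR395b to miR395a within a library does not depend on its size factor. It was chosen as a measure after the values were seen. At 0.5 h the ratio was 1.59 and 1.44 in the ABA libraries, against 1.22 and 1.27 in the EtOH libraries. At 1 h it was 1.54 and 2.17 in ABA, against 1.498 and 0.969 in EtOH. At both times the ABA libraries had the higher share of miR395b, though at 1 h only just (1.54 against 1.498). At 3 h the ratio was 1.01 and 2.22 in ABA, against 1.21 and 1.33 in EtOH. At 6 h it was 0.996 and 1.52 in ABA, against 1.67 and 1.79 in EtOH. The ABA libraries enclosed the EtOH libraries at 3 h and lay below them at 6 h. At 9 h it was 0.667 and 0.946 in ABA, against 1.12 and 0.948 in EtOH. At 12 h it was 0.723 and 0.586 in ABA, against 1.34 and 1.69 in EtOH. At 24 h it was 0.604 and 0.692 in ABA, against 0.667 and 0.819 in EtOH. The gap was widest at 12 h, barely separated the groups at 9 h, and at 24 h the groups overlapped.

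On the log2 scale the mean ABA minus EtOH difference of this ratio was 0.37 over the 3 early times, above 0 at 3 of 3 times. Over the 4 late times it was -0.57, below 0 at 4 of 4 times, and the late minus early change was -0.94. Leaving out any 1 library gave 0.19 to 0.56 early, -0.64 to -0.49 late and -1.13 to -0.75 for the change. Since the ratio was chosen with its values in view, these are given as a description with no test. In EtOH the ratio itself ranged with time, and both EtOH libraries had more miR395b than miR395a at 0.5, 3, 6 and 12 h and less at 24 h.

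**Figure D3:**
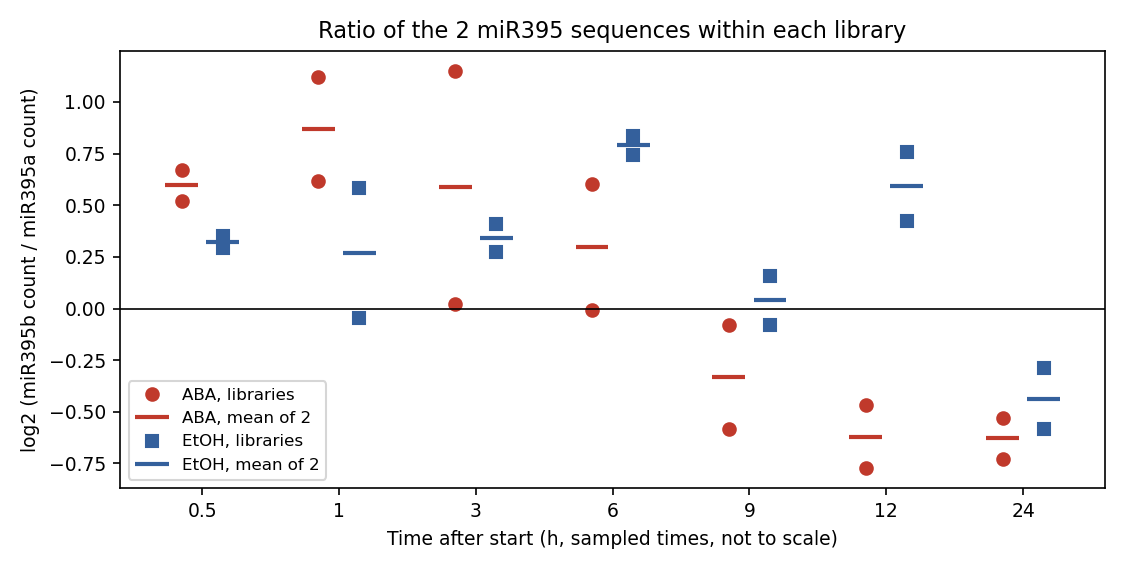
Log2 ratio of the miR395b count to the miR395a count within each library at each sampled time, ABA as red circles and EtOH as blue squares, with bars at the mean of 2 libraries. The ABA libraries lie above the EtOH libraries at 0.5 and 1 h and below them at 6, 9 and 12 h, barely so at 1 and 9 h. The gap is widest at 12 h (difference of means -1.21).

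The windows upstream of the genes were searched for 2 short motifs, the core of the ABA response element (ABRE, ACGTG) and the core of the sulfur-responsive element (SURE, GAGAC), on both strands. The windows run from 250 bases before to 50 bases after the annotated hairpin start, which is not a mapped transcription start. The windows of MIR395a and MIR395b are printed, 5′ to 3′ on the gene's strand with the motifs in capitals, since these neighbours are transcribed away from each other and each encodes 1 of the 2 sequences.
MIR395a (chr1:9363239-9363538, minus strand): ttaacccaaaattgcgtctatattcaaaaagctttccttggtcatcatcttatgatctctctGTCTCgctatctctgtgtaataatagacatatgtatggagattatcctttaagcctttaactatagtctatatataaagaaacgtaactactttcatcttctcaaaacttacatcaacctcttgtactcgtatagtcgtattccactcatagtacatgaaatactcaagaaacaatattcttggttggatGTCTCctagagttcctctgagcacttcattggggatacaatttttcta
MIR395b (chr1:9364221-9364520, plus strand): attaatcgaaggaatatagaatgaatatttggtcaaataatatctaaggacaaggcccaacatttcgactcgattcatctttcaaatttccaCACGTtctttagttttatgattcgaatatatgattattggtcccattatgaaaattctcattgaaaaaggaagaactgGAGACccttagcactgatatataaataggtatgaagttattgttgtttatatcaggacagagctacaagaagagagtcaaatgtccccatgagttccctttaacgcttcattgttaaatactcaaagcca
The MIR395a window held 2 SURE cores, both on the opposite strand, and no ABRE core. The MIR395b window held 1 ABRE core on the opposite strand and 1 SURE core. Among the 6 windows, 3 held an ABRE core (MIR395b, MIR395d and MIR395e) and 4 a SURE core (MIR395a, MIR395b, MIR395c and MIR395f). Over all 37897 annotated genes the shares were 24.6% for the ABRE core and 33% for the SURE core, and over the 326 miRNA genes 19% and 31.9%. The windows with an ABRE core did not follow the sequence classes, since MIR395b has the sequence that MIR395d and MIR395e lack.

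miRNAs of other nutrients gave a setting for the family: those induced by low phosphate (miR399, miR2111, miR827 and miR778), low copper (miR397, miR398, miR408 and miR857) and low nitrogen (miR826). At 0.5 h the median log2 difference was 2.14 for miR395, 0.43 for the 9 phosphate miRNAs, 0.58 for the 6 tested copper miRNAs, 0.26 for the 2 nitrogen miRNAs and -0.04 for all tested miRNAs. Of all tested miRNAs 5.42% rose at 0.5 h. Of the phosphate list 1 of 9 rose, miR399d, which lowers the phosphate regulator PHO2 (log2 difference 1.78, adjusted p = 0.0141). Of the copper list 2 of 6 rose, among them miR397a, which targets laccases (0.91, adjusted p = 0.0363). None of these lists reached the median of miR395 at 0.5 h.

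At 24 h the median was -1.06 for miR395, 0.09 for the phosphate list, 1.56 for the copper list, 2.78 for the nitrogen list and -0.01 for all tested miRNAs. All 6 tested copper miRNAs rose, and 2 of 2 nitrogen miRNAs, where 10.4% of all tested miRNAs rose at 24 h. Examples were miR398b-3p, which targets copper superoxide dismutases (log2 difference 1.89, adjusted p = 0.000152), and miR826a (2.64, adjusted p = 0.00924). Of the phosphate list 2 of 9 rose, among them miR2111a-5p (2.11, adjusted p = 2.06e-06). In the late minus early contrast the median was -1.70 for miR395, against -0.43 for the phosphate, 0.45 for the copper and 1.61 for the nitrogen list. Of these 3 lists 0 members fell, where 10.1% of all tested miRNAs did. In them 2 phosphate, 3 copper and 1 nitrogen miRNAs rose, where 6.16% of all tested miRNAs did. The phosphate miRNAs that rose were miR2111a-5p (1.29) and miR2111b-5p (1.30), as at 24 h. Among the copper miRNAs, miR398b-3p and miR398c-3p had 1.33 each. Such near-equal entries may repeat the same reads, so the list counts are not counts of separate miRNAs. The differences between lists were not tested.

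**Figure D4:**
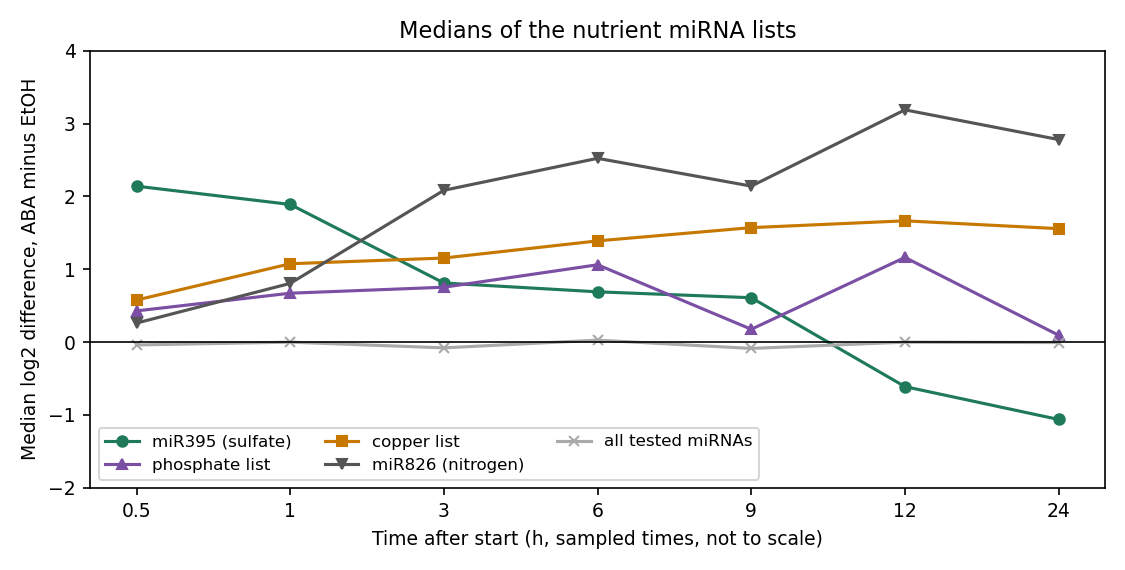
Median log2 difference, ABA minus EtOH, of the miR395 family and of the phosphate, copper and nitrogen miRNA lists at each sampled time, with the median of all tested miRNAs in grey. The miR395 median runs from 2.14 at 0.5 h to -1.06 at 24 h, while the copper median is 0.58 at 0.5 h and 1.56 at 24 h.

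The miRNAs whose 7 differences were most like those of miR395 were sought among 351 others, as a description with no test, since the times share libraries and scaling with the members. The highest Pearson correlations with the mean of the 2 miR395 sequences were those of miR390a-5p (r = 0.963), miR390b-5p (0.961), miR839-5p (0.949), miR169f-3p (0.937) and miR864-3p (0.906), each over 7 times. The 2 miR395 sequences had r = 0.932 with each other. A like shape did not mean a like level of response: miR390a-5p, the trigger of tasiRNA production from TAS3, had log2 differences of 0.12 at 0.5 h and -1.53 at 24 h. miR169f-3p, the opposite arm of a miRNA that targets NF-YA subunits, had 1.07 at 0.5 h and -1.05 at 24 h, on both sides of 0 as miR395b was. By the 14 jointly scaled group levels the most like were miR169g-3p (r = 0.785), miR169f-3p (0.767), miR404 (0.639), miR829-3p (0.548) and miR399f (0.548). miR169f-3p stood in both sets, with a late minus early change of -1.66, and miR169g-3p had -1.31. Among the miRNAs picked here the change was as small as -0.27, for miR404. All were picked for their likeness to miR395 in these same values. A change below 0 therefore follows in part from the choice, and no p-value is given.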

How the data were processed

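Small RNA was measured in 28 libraries of seedlings. FastQC, STAR and the TAIR10 build are named, with no version, in the submitters' processing notes. No source used here gives the read counter, the annotation, how reads with several loci were handled, the normalization or the authors' test. Per the file headers, the deposited table holds, for each of 421 miRNAs, 14 signal values (1 for each group) and 7 log2 ratios and 7 adjusted p-values of the authors' comparisons. Each deposited log2 ratio equalled the log2 of the ratio of means.

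Each deposited signal value was the mean of 2 whole counts, each divided by the size factor of its library (0.687 to 1.36). A value was split where exactly 1 pair of whole counts fitted it, which held for 5316 of 5894 values (90.2%). At least 1 pair fitted 100% of values between 0 and 100. With randomly moved steps (up to 10%), a pair fitted 0% of these low values. The 59 miRNAs that could not be split in at least 1 group, among them the abundant ones, are missing there, so library depth is known only for the split part (218054 to 788576 counts). The analysis planned for single libraries was run on these recovered values.

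Values were tested as log2(value + 1) with limma 3.58.1 (lmFit, eBayes with trend, R 4.3.3), on 14 group means with 14 residual degrees of freedom, for miRNAs at a value of 1 or more in at least 2 libraries. Fold changes on this scale are understated for low miRNAs. Adjustment was Benjamini-Hochberg within each comparison, at 0.05. The fit was tested on simulated data. Time courses used size factors (median of ratios) computed jointly for the 28 libraries, because the deposited scaling may be separate for each time. Sequences and coordinates are from RefSeq on TAIR10.1, matched by name for 413 of 421 miRNAs (335 distinct sequences). Named beside the members were the 5 most alike miRNAs by each measure and list members past the threshold. Members, lists, the early and late times and alternatives were chosen with earlier results of these data known. The alternatives were other pseudocounts, filters, scalings, fits and authors' p-values, and leaving out each library. A planned count-model alternative was replaced by limma's voom on the recovered counts, chosen after seeing the data.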

Additional observations from a re-analysis of the deposited data

Results flagged for a closer look

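The effect of ABA on miR395 differed between times by direct tests. The early and late times of the first test were chosen with earlier results of these data known. The late minus early change in the log2 difference was -1.24 for miR395a, miR395d and miR395e, -2.18 for miR395b, -2.19 for miR395c and -2.16 for miR395f. The test that the 7 differences were equal gave a limma adjusted p of 0.00564 for miR395a, miR395d and miR395e, of 0.000143 for miR395b and miR395c, and of 0.000151 for miR395f. Members with the same sequence repeat the same reads, so these are 2 results and not 6. With 2 libraries a group, single libraries could not be tested as outliers.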

How the results depend on the processing

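No paired analysis was possible because the columns carry no replicate numbers, and the recovered libraries cannot be matched between groups. Counts of members were taken in both directions, and many were 0 in every setting. The outcome of a ratio was judged by a permutation test that is not printed, since the ratio was chosen after its values were seen. The share that kept its outcome is therefore no measure of stability. Over settings other than leaving out a library, 150 of 160 counts and ratio values kept their outcome. The others were: with the authors' adjusted p, 3 members raised at 1 h and 6 lowered at 24 h; with only the 4 libraries of 24 h, 6 lowered; with no filter, 0 lowered at 12 h; with the 7 deposited log2 ratios, 0 for the mean and 0 for late minus early; and in the EtOH course 3 with a pseudocount of 0.1 or 10, 0 with no filter and 0 with the authors' scaling. Centring each library on its median turned the sign at 12 h of miR395a (0.0071), miR395d (0.011) and miR395e (0.013), and moved the median of all tested miRNAs by 0.12 at 1 h. Leaving out single libraries gave 3 to 6 members raised at 1 h, 0 to 3 at 3, 6 and 9 h, 0 to 3 lowered at 12 h, 0 to 6 at 24 h and 0 to 6 in the EtOH course; 0.19 to 0.56 for the early ratio; -0.16 to 0.12 for miR395a, -0.16 to 0.13 for miR395d and -0.15 to 0.12 for miR395e at 12 h; and -0.025 to 0.84 for miR395b and -0.027 to 0.83 for miR395c at 9 h. A lone library was assumed to vary like the other groups. The causes were not tested. With 2 libraries a group, differences near 1 on the log2 scale passed or missed the threshold by the library left out, and the depth of the unsplit miRNAs is unknown.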
